A study of Mus musculus with 36 samples.

Results

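Neural precursor cells (NPC) of a mouse line whose MLL2 protein carries a degron were compared with NPC of the wild-type line, gene by gene, in 6 RNA sequencing libraries of the 36 samples in the series. Both lines are E14 embryonic stem cells (ESC), a male mouse line, that were differentiated with retinoic acid. The wild-type group (WT) had 3 libraries and the degron group (MLL2dTAG) had 3. The MLL2dTAG cells carry the dTAG degron on MLL2, with MLL3 and MLL4 not edited. dTAG-13, the compound that directs a tagged protein to degradation, was given at 2 µM from day 1 of differentiation, and the NPC were collected on day 4. The labels give dTAG-13 and retinoic acid for the WT NPC too, so both agents are shared by the groups. MLL2dTAG is a cell line of its own, so the loss of MLL2 protein and any other difference between the lines cannot be told apart. The labels do not say that replicates were separate cultures, and p-values then measure only the spread between these libraries, which may be technical. The same lines as ESC, and NPC of the line dCD, in which MLL3 and MLL4 are catalytically inactive, served for comparison with 3 libraries each. The labels give dTAG-13 for these libraries as well.

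MLL2, encoded by Kmt2b, is one of the enzymes of the trithorax family that methylate lysine 4 of histone H3 (H3K4), a mark of active promoters. It binds DNA rich in unmethylated CG dinucleotides through a CXXC domain. In mouse ESC it is known for H3K4 trimethylation at promoters that also carry the Polycomb mark, many of which belong to developmental genes, and Magohb is a known gene that needs it. MLL3 and MLL4 act mainly at enhancers.

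The promoters of 6 genes with large changes are shown first, because MLL2 is known to bind DNA rich in unmethylated CG dinucleotides. Binding of MLL2 at these 6 promoters was not tested. Each window of 300 bases runs 5′ to 3′ along the strand of the gene, from 250 bases before to 50 bases after a RefSeq start on GRCm38.p6. Capitals mark the CG dinucleotides, which read the same on both strands. Magohb, Pgbd1, Scml2 and Casp8 were nearly silent in MLL2dTAG NPC, and Tuba3a and Pou5f1 were among the genes that rose most.
Magohb: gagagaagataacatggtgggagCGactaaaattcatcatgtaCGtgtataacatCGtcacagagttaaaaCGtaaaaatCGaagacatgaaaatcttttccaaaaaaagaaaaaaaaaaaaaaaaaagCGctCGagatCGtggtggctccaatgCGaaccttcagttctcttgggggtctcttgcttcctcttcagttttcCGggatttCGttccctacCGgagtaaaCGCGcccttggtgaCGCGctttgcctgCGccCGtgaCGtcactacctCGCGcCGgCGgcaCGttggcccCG
Pgbd1: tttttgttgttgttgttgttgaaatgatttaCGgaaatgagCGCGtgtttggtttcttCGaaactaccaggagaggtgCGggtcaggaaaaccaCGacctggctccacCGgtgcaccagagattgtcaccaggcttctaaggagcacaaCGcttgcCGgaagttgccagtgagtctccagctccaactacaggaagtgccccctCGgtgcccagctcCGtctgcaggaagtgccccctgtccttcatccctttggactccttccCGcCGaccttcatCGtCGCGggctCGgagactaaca
Scml2: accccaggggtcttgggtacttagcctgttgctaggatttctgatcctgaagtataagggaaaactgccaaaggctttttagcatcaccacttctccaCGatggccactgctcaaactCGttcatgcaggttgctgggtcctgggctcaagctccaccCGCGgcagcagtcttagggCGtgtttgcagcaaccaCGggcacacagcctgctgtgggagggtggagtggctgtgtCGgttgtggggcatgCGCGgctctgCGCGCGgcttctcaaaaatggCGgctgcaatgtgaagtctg
Casp8: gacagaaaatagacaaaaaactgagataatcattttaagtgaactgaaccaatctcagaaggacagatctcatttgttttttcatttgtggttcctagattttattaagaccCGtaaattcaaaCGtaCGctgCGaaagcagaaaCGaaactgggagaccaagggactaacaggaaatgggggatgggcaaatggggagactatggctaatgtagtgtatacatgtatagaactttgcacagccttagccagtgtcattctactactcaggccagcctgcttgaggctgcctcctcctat
Tuba3a: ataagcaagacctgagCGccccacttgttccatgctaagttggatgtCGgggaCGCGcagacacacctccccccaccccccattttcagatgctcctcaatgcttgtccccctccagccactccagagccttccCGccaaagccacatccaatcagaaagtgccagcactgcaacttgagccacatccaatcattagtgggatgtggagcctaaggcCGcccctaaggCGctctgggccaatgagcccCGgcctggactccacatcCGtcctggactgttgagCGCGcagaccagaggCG
Pou5f1: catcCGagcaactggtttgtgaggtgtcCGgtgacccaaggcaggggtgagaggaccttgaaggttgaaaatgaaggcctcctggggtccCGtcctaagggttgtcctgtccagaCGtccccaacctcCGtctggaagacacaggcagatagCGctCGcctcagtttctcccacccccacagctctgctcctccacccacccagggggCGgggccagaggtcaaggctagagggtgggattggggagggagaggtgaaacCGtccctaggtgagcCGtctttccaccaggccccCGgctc

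The windows lie at chr6:131293195-131293494 (minus strand) for Magohb, chr13:21441004-21441303 (minus) for Pgbd1, chrX:161162500-161162799 (plus) for Scml2, chr1:58802252-58802551 (plus) for Casp8, chr6:125286032-125286331 (minus) for Tuba3a and chr17:35505782-35506081 (plus) for Pou5f1. The Magohb window holds 25 CG, and 18.6% of the 32544 RefSeq windows of this length hold as many or more. Pgbd1 has 17 CG (31.6% of windows hold as many) and Scml2 has 13 (38.2%). Casp8 has the fewest of the 6, with 5 CG (62.3%). Tuba3a has 12 CG (39.9%) and Pou5f1 has 11 (41.7%). These 6 windows are examples and cannot show whether genes that rose and genes that fell differ in CG content. For Pgbd1 and Pou5f1, 2 starts are listed and the upstream one is shown. A comparison of CG content between classes of genes was void, since only 63.3% of the genes tested matched a promoter window.

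Total counts of the 6 libraries were 30.5 to 46 M, and 25541 to 26730 genes had a count. Replicates were close, with a biological coefficient of variation of 4.01%, and log2 expression across genes, which are not independent, had Pearson correlations of 0.989 to 0.991 within a group and 0.951 to 0.954 between the groups. Of the counts from 1 to 10, 61.4% to 65.5% were even. Whether both mates of a read pair were counted is not given in the sources used here. If they were, the read numbers printed below count each fragment up to 2 times and a floor of 3 fragments is 6 counts. Levels below are CPM, the usual counts relative to library size, here scaled with TMM factors, and a count of 0 allows up to 3 counts, which is 0.0652 to 0.0984 CPM in a library and covers counting error only. Sums of cell type markers, levels given over a group and the floors are CPM of library totals, without TMM factors. These factors were 1.04 in WT and 0.977 to 0.984 in MLL2dTAG. CPM do not account for transcript length, so levels are compared between groups and not between genes. A gene is called where edgeR's quasi-likelihood test gave a Benjamini-Hochberg adjusted p under 0.05, and "rose" and "fell" are used only of called genes. Changes are log2 changes of MLL2dTAG against WT, with the standard error (SE) where one is given.

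The test called 12665 of 20511 genes (61.7%), with 6840 (33.3%) up and 5825 (28.4%) down in MLL2dTAG NPC. Counts of list members below are to be read beside these shares of 33.3% and 28.4%. Most changes were small: the median log2 size of a called change was 0.58, and the median change of all genes was 0.03. A change of 2-fold or more was seen in 1581 genes called higher (7.71%) and 2435 called lower (11.9%). A stricter edgeR test, of whether the change exceeds 2-fold, called 942 up and 1476 down. Past 16-fold were 137 genes called higher and 174 called lower. Large changes were mostly in genes of low level. Among the 2896 genes that averaged 100 CPM or above, 48 rose and 37 fell at least 2-fold, while of 4328 genes between 1 and 10 CPM 487 rose and 954 fell at least 2-fold. There were 83 genes called lower with no count in the 3 MLL2dTAG libraries, and 67 called higher with no count in the 3 WT libraries. By kind of gene, 7.89% of 15235 protein-coding genes rose and 12.1% fell at least 2-fold, beside 11.2% and 12.4% of 1136 long noncoding RNA genes.

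**Figure D1:**
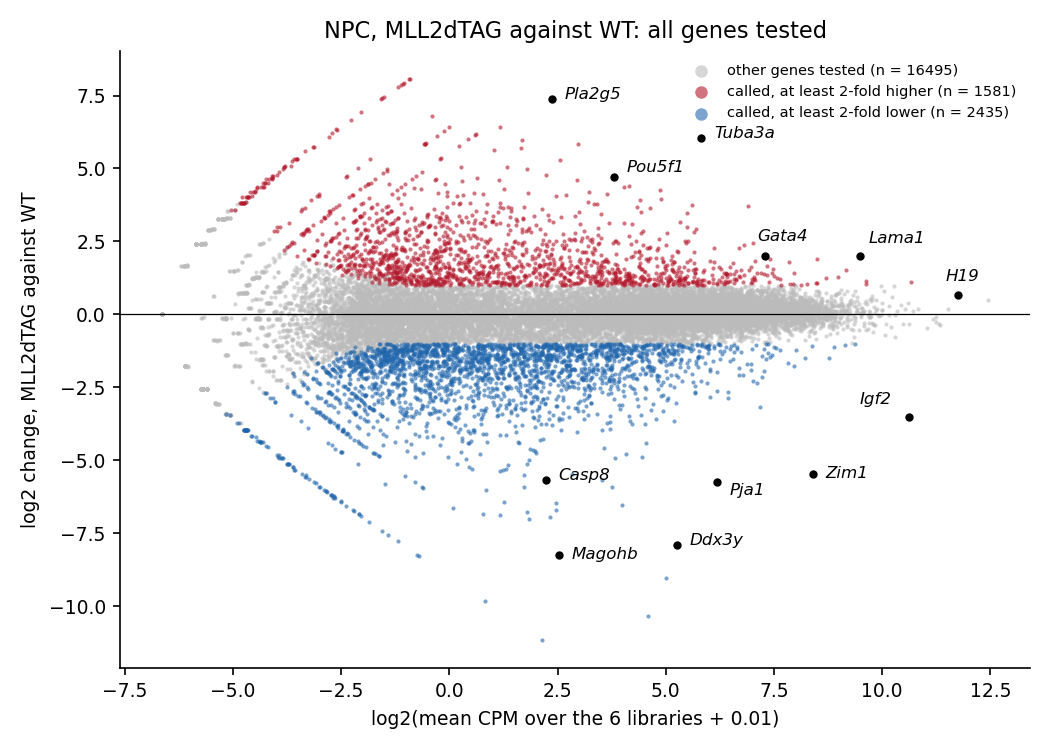
Each point is a gene tested in NPC, with the log2 mean CPM over the 6 libraries (plus 0.01) on the x axis and the log2 change of MLL2dTAG against WT on the y axis. Red points (1581) were called and at least 2-fold higher, blue points (2435) called and at least 2-fold lower, grey points were neither, and 12 genes are marked in black with their names. The named genes run from Magohb at -8.25 to Pla2g5 at 7.39.

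The transcript of the tagged gene checks nothing here, because a degron acts on the protein. Kmt2b was 177, 193 and 179 CPM in WT and 203, 190.3 and 198 CPM in MLL2dTAG, and the groups overlapped. Its change of 0.11 (SE 0.05) had an edgeR adjusted p of 0.041 and lost its call in 11 of 14 alternative settings, with edgeR or DESeq2 adjusted p from 0.013 to 0.79. Kmt2c, the gene of MLL3, rose from 171 to 178 CPM in WT to 299.6 to 335 CPM in MLL2dTAG. Kmt2d, the gene of MLL4, was at 229.7 to 250.1 CPM in WT and 254 to 269 CPM in MLL2dTAG (edgeR adjusted p = 0.12). Of 20 genes of the COMPASS and MLL complexes tested, 11 rose (55%) and 1 fell (5%), none by 2-fold. Over all genes tested these shares were 33.3% and 28.4%. The member that fell was Bod1l (-0.14). The median of this list, 0.12, ran from 0.03 to 0.14 under other scalings and without single libraries. The shared core subunit gene Ash2l rose from 192 to 201 CPM in WT to 278 to 281 CPM.

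A group of genes went from clear expression to almost nothing. Magohb, which encodes a core protein of the exon junction complex, had 11.3, 10.6 and 12.9 CPM in WT and 0, 0.0442 and 0.0522 CPM in MLL2dTAG. The 3 MLL2dTAG libraries held 4 reads of it in all, against 1216 in WT, and the change was -8.25 (SE 0.28). Its close copy Magoh rose from 74.2 to 78.6 CPM in WT to 83.6 to 87.6 CPM, a change of 0.18 (SE 0.06). How reads shared by such copies were counted is not given in the sources used here. Of 21 genes of the exon junction complex and nonsense-mediated decay, 12 rose and 5 fell, and Magohb was the only one past 2-fold.

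Several other genes of this group have roles in germ cells or are of little known function. Pgbd1, derived from a piggyBac transposase, had 10.6, 10.3 and 8.91 CPM in WT and 0.089, 0.0442 and 0.104 CPM in MLL2dTAG. Igsf10, an immunoglobulin superfamily gene, fell from 30.4 to 32.8 CPM in WT to 0.265 to 0.444 CPM. Tex15, needed for meiotic recombination and transposon silencing in male germ cells, fell from 41.6 to 43.1 CPM in WT to 0.707 to 1.96 CPM. The groups lie far apart for each of them. The transcript 2810429I04Rik, chosen after its values were seen, had 934 reads in WT (9.23 CPM over the group) and no count in MLL2dTAG, at least 368-fold lower against a floor of 3 counts over the group and at least 184-fold lower against 6.

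Further large falls were found in Hmgcll1, an enzyme gene of leucine and ketone metabolism, which fell from 22.1 to 23 CPM in WT to 0.297 to 0.574 CPM, and in Csf2ra, a cytokine receptor gene, which fell from 11.9 to 15.5 CPM in WT to 0.119 to 0.442 CPM. Casp8, the initiator caspase of death receptor signalling, had 8.74, 9.48 and 9.5 CPM in WT and 0.297, 0.155 and 0.104 CPM in MLL2dTAG, a change of -5.66 (SE 0.22). It stood apart from its list: of 37 p53 and apoptosis genes 17 rose and 11 fell, and 1 and 2 did so at least 2-fold.

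Among the 12 genes with the lowest changes, of those called, averaging 5 CPM or more and without overlap between the groups, 3 lie on the X and 3 on the Y chromosome. Of the 17675 genes tested that could be placed on a chromosome, 673 lie on the X and 8 on the Y. Pja1, an X-linked ubiquitin ligase gene, had 145, 144 and 143 CPM in WT and 2.02, 2.85 and 3.08 CPM in MLL2dTAG. The X-linked genes Tceal1 and Scml2, the latter a Polycomb-related gene of the germline, went from 10.6 to 11.7 CPM to 0.0883 to 0.119 CPM and from 10.46 to 11.2 CPM to 0.0593 to 0.157 CPM. The X as a whole had a median change of -0.06, with 15.2% of its genes at least 2-fold lower and 9.06% at least 2-fold higher. Over all placed genes these shares were 11.8% and 7.82%, and on chromosome 6 they were 15.2% and 8.96%. Medians of the autosomes ran from -0.02 to 0.14.

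All 7 genes of the Y-linked list that were tested fell, and their summed level was 195 to 199 CPM in WT and 0.415 to 0.652 CPM in MLL2dTAG. All 8 tested genes placed on the Y were at least 2-fold lower, with a median of -7.05 in NPC and -4.75 in ESC. In dCD NPC against WT, 2 of the 7 were higher and 0 lower, and Ddx3y was at 81.3 ± 2.35 CPM (SD, n = 3). The cause of a fall over the whole chromosome was not tested. Ddx3y, an RNA helicase gene, fell from 73.4 to 78.4 CPM in WT to 0.237 to 0.391 CPM. Kdm5d, an H3K4 demethylase gene, fell from 6.5 to 7.88 CPM in WT to 0 to 0.104 CPM. In MLL2dTAG ESC some Y-linked RNA was still counted: Ddx3y was 4.04 ± 0.317 CPM there (SD, n = 3) and 73.5 ± 3.6 CPM in WT ESC. In bulk libraries, fewer cells that express a gene and less RNA per cell cannot be told apart, and this holds for every marker below.

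**Figure D2:**
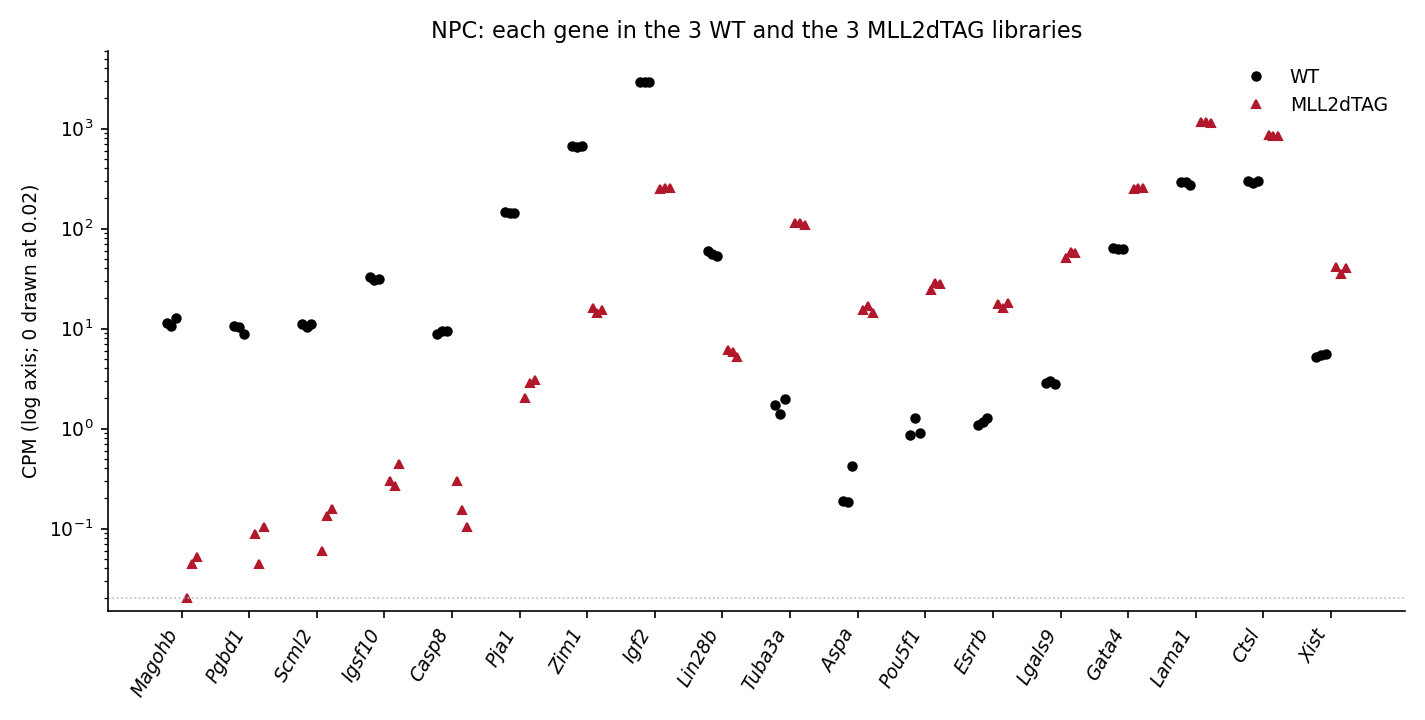
CPM on a log axis for 18 genes, with a circle for each of the 3 WT libraries and a triangle for each of the 3 MLL2dTAG libraries; a value of 0 is drawn at 0.02. The 2 groups do not overlap for any of the 18: Magohb, for example, lies at 10.6 to 12.9 CPM in WT and at 0 to 0.0522 CPM in MLL2dTAG. The groups also did not overlap in 13929 of all 20511 genes tested (67.9%), and some of the 18 were chosen by a rule that asked for this.

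The largest fall in CPM was that of the imprinted gene Igf2. Imprinted genes are expressed mainly from the maternal or the paternal copy, which DNA methylation tells apart. Igf2, a fetal growth factor gene, had 2896, 2910.2 and 2903 CPM in WT and 250.3, 257 and 256 CPM in MLL2dTAG, a change of -3.51 (SE 0.04). H19, the noncoding RNA beside it that is expressed from the other copy, rose from 2634 to 2727 CPM in WT to 3987 to 4432 CPM (0.66 (SE 0.04)). Zim1 had 666, 661 and 666 CPM in WT and 16.2, 14.2 and 15.2 CPM in MLL2dTAG. Peg3, its neighbour, also expressed from the opposite copy, rose from 4573 to 4759.5 CPM in WT to 6134 to 6894 CPM. In both pairs the groups did not overlap, as in 67.9% of all genes tested, and the neighbours changed in opposite directions.

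The imprinted list as a whole had no common direction: of 54 tested, 21 rose and 22 fell, 4 and 12 of them at least 2-fold, with a median of 0.02 whose sign changed with the scaling of the libraries. The DNA-binding gene Zdbf2 fell from 229 to 234 CPM in WT to 42.7 to 48.5 CPM, and Cdkn1c, which encodes an inhibitor of cyclin-dependent kinases, fell from 87.5 to 91.4 CPM in WT to 13.5 to 13.8 CPM. Plagl1, a zinc finger gene, fell from 639 to 656 CPM in WT to 219 to 235 CPM. Among those that rose, Impact went from 198 to 206 CPM to 413 to 421 CPM and Igf2r, the receptor gene that clears IGF2, went from 371 to 388 CPM to 607 to 642 CPM. Xist, the noncoding RNA that silences an X chromosome in female cells, rose from 5.22 to 5.56 CPM in WT to 35.1 to 41.6 CPM in this male line. Xist overlaps its antisense RNA Tsix, and whether counting used the strand is not given in the sources used here.

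Pluripotency genes, which are normally shut down as ESC turn into neural cells, had the highest median of all lists. Of 34 tested, 31 rose and 1 fell, 25 and 0 of them at least 2-fold, against 33.3% and 28.4% of all genes, with a median of 1.94. Pou5f1, the gene of OCT4, had 0.855, 1.28 and 0.894 CPM in WT and 24.5, 28.3 and 27.9 CPM in MLL2dTAG. Esrrb, a nuclear receptor gene of naive pluripotency, rose from 1.08 to 1.28 CPM in WT to 16 to 18.1 CPM (3.86 (SE 0.09)). Tdgf1, the gene of a nodal co-receptor, rose from 1.33 to 1.79 CPM in WT to 30.3 to 32.7 CPM. Every MLL2dTAG library was above every WT library for these genes, while 67.9% of all genes tested had no overlap in one direction or the other. The one that fell was Lin28a (-0.40), and Sox2, which ESC and neural cells share, rose by only 0.27.

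The levels were small beside those of ESC. The 7 pluripotent cell markers summed to 13.4 to 15.2 CPM of library totals in WT NPC, 129.9 to 136 CPM in MLL2dTAG NPC and 3374 to 3813 CPM in WT ESC. Of 25 Platr and other long noncoding RNAs linked to pluripotency 13 rose and 3 fell, mostly from levels below 1 CPM. Neat1, the RNA that builds paraspeckles, rose from 13.9 to 15.6 CPM in WT to 53.3 to 55.9 CPM. The formative and primed epiblast list was divided, with 8 of 21 higher and 7 lower. Within it Lin28b, which blocks maturation of let-7, fell from 53.1 to 59.2 CPM in WT to 5.17 to 6.05 CPM, and the FGF-responsive factor Etv5 rose from 16 to 17 CPM in WT to 56.1 to 56.4 CPM. The two-cell-like list was lower in 10 of 19 and higher in 1, all of the falls from under 1 CPM. Zscan4c, its best known member, had 47 reads in WT and none in MLL2dTAG, at least 18.5-fold lower against 3 counts over the group and 9.27-fold against 6, but its copies are nearly identical and their counts are uncertain.

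Endoderm genes were mostly higher. Of 36 tested, 25 rose and 8 fell, 16 and 5 of them at least 2-fold, with a median of 0.92. Gata4, a factor of primitive endoderm and heart, had 63.4, 62.5 and 62.1 CPM in WT and 249, 254 and 256 CPM in MLL2dTAG (2.01 (SE 0.04)). Sox7, a factor of primitive endoderm, rose from 7.46 to 7.71 CPM in WT to 31.4 to 36.1 CPM, and the secreted protein genes Ttr and Afp reached 11.9 to 13.8 CPM and 4.2 to 5.52 CPM from 2.1 to 2.29 CPM and 0.696 to 1.01 CPM. Basement membrane genes were on this list: Lama1 rose from 271 to 293 CPM in WT to 1139 to 1158 CPM, and Col4a1 rose from 993 to 1085 CPM in WT to 2211 to 2248 CPM. Both, with Lamc1 and Sparc, were among the 6 largest rises in CPM of all genes. Of the 8 members that fell, 6 are epithelial keratin, claudin or adhesion genes, and the others are the retinol carrier gene Rbp4 and the chemokine receptor gene Cxcr4.

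Markers of other cell types that such cultures can hold moved with these changes. The 7 endoderm markers summed to 218 to 224 CPM in WT and 511 to 527 CPM in MLL2dTAG, and all 7 rose. The 8 mesenchyme and fibroblast markers summed to 687 to 701 CPM and 937 to 940.3 CPM, with 4 higher and 3 lower. Those of endothelium and blood summed to 62.6 to 65.3 CPM and 209 to 215 CPM with 3 higher, while Hbb-bt and Ptprc, which define red and white blood cells, had no count in either group. The 5 neural crest markers summed to 39.3 to 43.4 CPM and 47.5 to 48.4 CPM, and muscle markers stayed at or below 0.764 CPM in all 6 libraries. Markers of the labelled cell type were counted in both groups: the 7 neural progenitor markers summed to 251 to 269 CPM in WT and 274 to 284 CPM in MLL2dTAG, with 3 higher and 2 lower. The 6 neuron markers summed to 264 to 270.4 CPM and 245 to 257 CPM, with 3 higher and 2 lower, and the 5 glia markers to 113 to 119 CPM and 172 to 178 CPM, with 1 higher and 2 lower. In WT ESC the neural progenitor markers summed to 422 to 443 CPM and the neuron markers to 386 to 452 CPM. Both sums were above those of WT NPC, so they do not tell NPC from ESC. The endothelium and blood markers summed to 109 to 114 CPM in WT ESC, also above WT NPC. Their sum therefore does not tell endothelium from ESC. The mesenchyme and fibroblast markers summed to 457 to 581 CPM in WT ESC. The part of other cell types in the results was not tested.

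**Figure D3:**
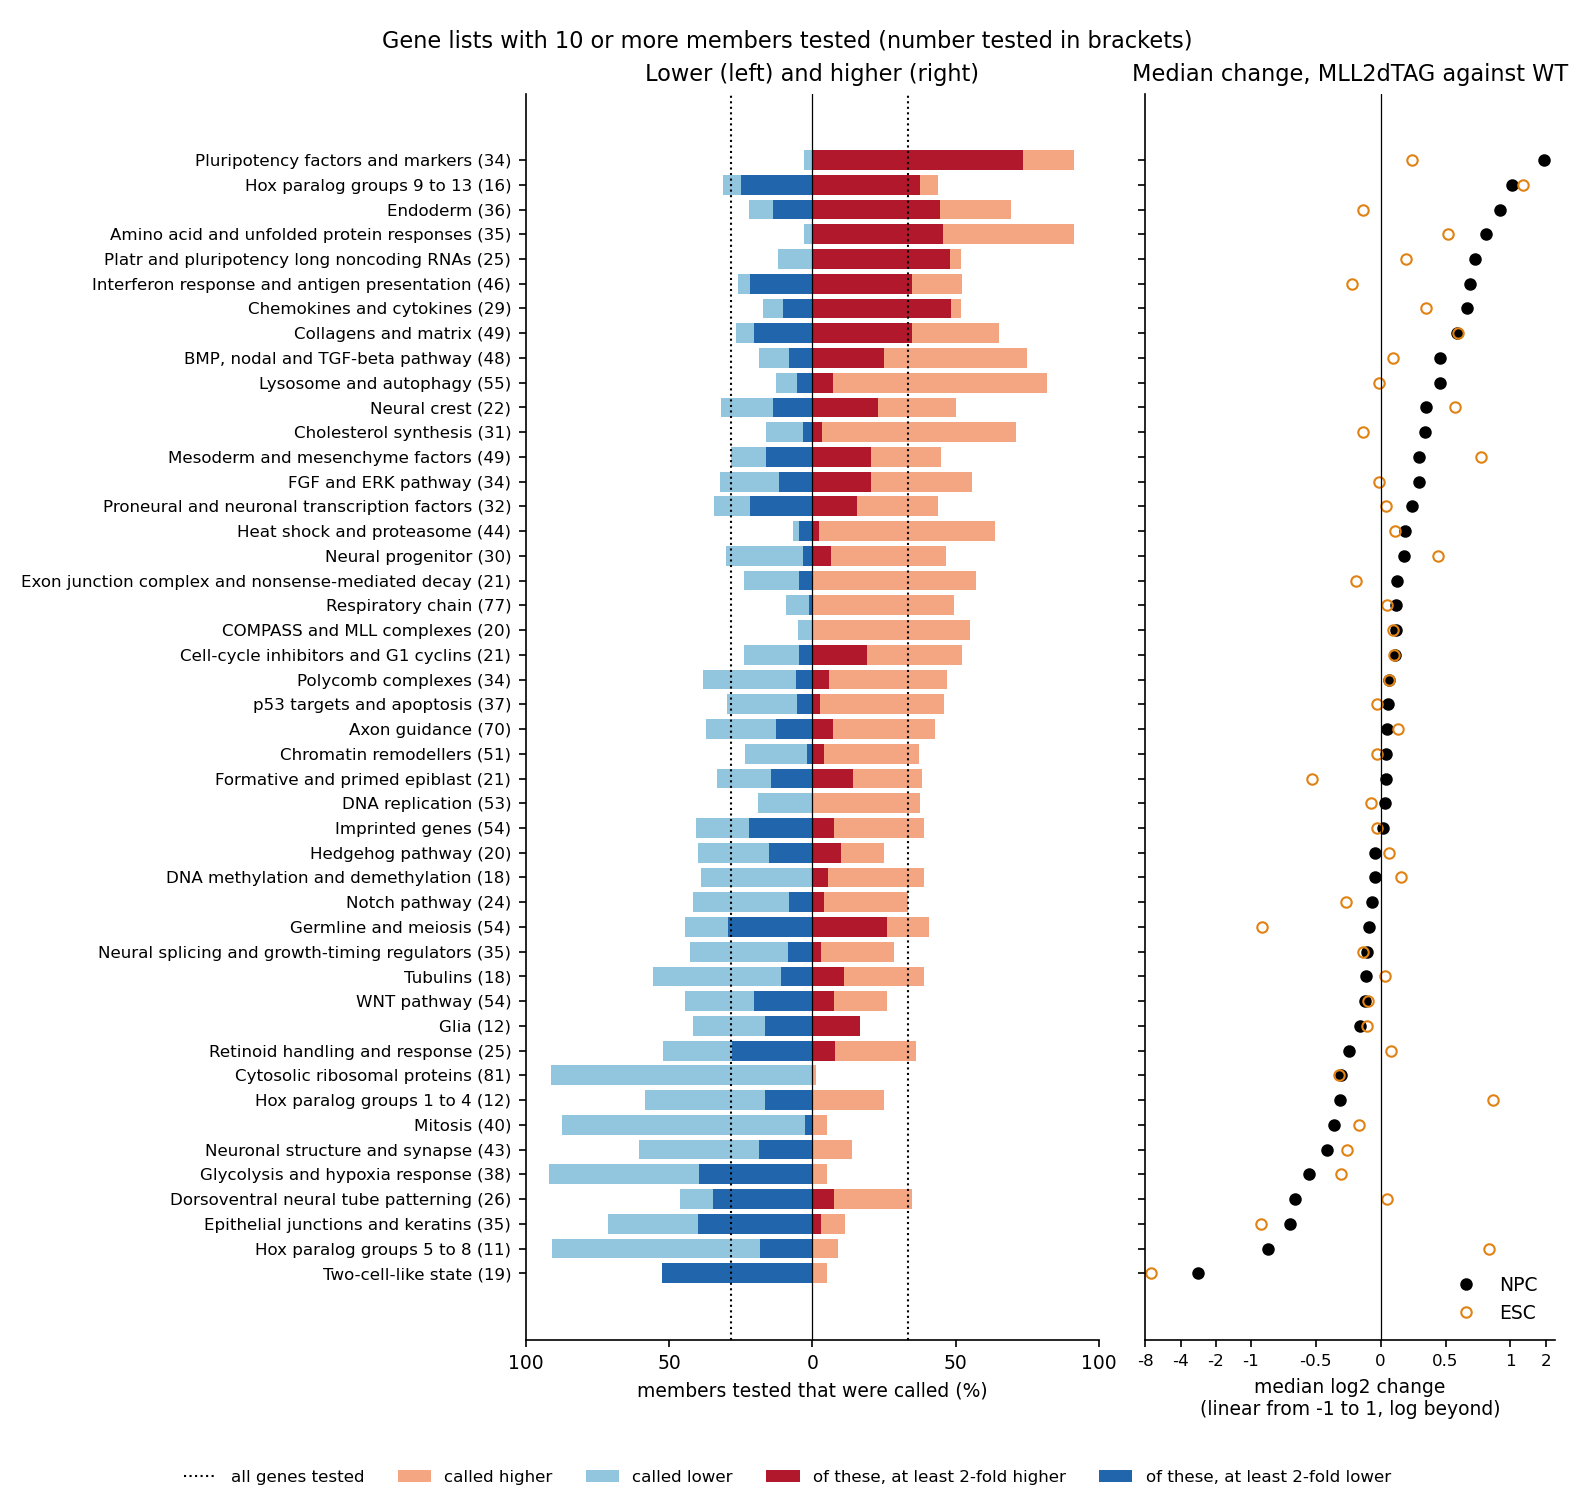
Left, for 46 gene lists with 10 or more genes tested, the percentage of members called lower (left of 0) and higher (right of 0), with changes of at least 2-fold in the dark shade and the shares of all genes tested, 28.4% and 33.3%, as dotted lines. Right, the median log2 change of each list in NPC (filled) and in ESC (open), on an axis that is linear from -1 to 1 and logarithmic beyond. Pluripotency genes have the highest NPC median, 1.94, and the two-cell-like list the lowest, -2.83.

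Neural genes did not move as a block. Of 30 neural progenitor genes 14 rose and 9 fell, with a median of 0.18. Prom1, a membrane protein gene of stem cells, fell from 49.3 to 53.3 CPM in WT to 9.65 to 10.6 CPM, whereas the homeobox gene Lhx2 rose from 6.71 to 8.49 CPM in WT to 19.4 to 21.2 CPM. Of 12 glial genes 2 rose and 5 fell, and Mbp, a myelin gene, fell from 35.8 to 37.8 CPM in WT to 9.73 to 11 CPM, whereas Pdgfra, the gene of a PDGF receptor of oligodendrocyte precursors and mesenchyme, rose from 60.8 to 65.7 CPM in WT to 158 to 162 CPM. Of 35 genes of neural splicing and growth timing 10 rose and 15 fell, and the splicing factor gene Mbnl3 fell from 17.7 to 18.4 CPM in WT to 4.46 to 5.4 CPM. Of 32 proneural and neuronal transcription factors 14 rose and 11 fell, and the factor gene Onecut2 rose from 26.3 to 29.2 CPM in WT to 71.8 to 78.1 CPM.

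Genes of neuronal structure and synapses leaned lower. Of 43 tested, 6 rose and 26 fell, 0 and 8 of them at least 2-fold, with a median of -0.41. Nefm, a neurofilament gene, had 42.5, 38.2 and 41.6 CPM in WT and 9.19, 11 and 8.82 CPM in MLL2dTAG (-2.07 (SE 0.08)). The synaptic adhesion gene Nlgn1 fell from 2.57 to 2.93 CPM in WT to 0.356 to 0.397 CPM, the axonal adhesion gene Cntn2 fell from 54.9 to 55.9 CPM in WT to 18.9 to 19.9 CPM, and Syt1, the calcium sensor of transmitter release, fell from 10.7 to 11.7 CPM in WT to 4.33 to 5.06 CPM. The widely used neuronal marker genes Tubb3 and Stmn2 rose by 0.15 and 0.25. Potassium channel subunits, taken by gene symbol, were lower in 37 of 76 and higher in 11, 27 and 6 of them at least 2-fold. Of 70 axon guidance genes 30 rose and 26 fell, and the semaphorin receptor gene Plxnd1 fell from 14.4 to 16.2 CPM in WT to 1.93 to 2.4 CPM.

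Factors that set cell fate along the dorsoventral axis of the neural tube included several large falls. Of 26 tested, 9 rose and 12 fell, 2 and 9 of them at least 2-fold, with a median of -0.66. Lmx1a, a factor of the roof plate, had 9.5, 9.69 and 10.03 CPM in WT and 1.75, 1.06 and 1.15 CPM in MLL2dTAG. The dorsal factor genes Pax7 and Olig3 went from 1.9 to 2.93 CPM to 0.104 to 0.221 CPM and from 6.47 to 7.63 CPM to 1.28 to 1.62 CPM. Gsx1, a factor of dorsal interneurons chosen after its values were seen, had no count in WT and 1.07, 0.883 and 1.2 CPM in MLL2dTAG, at least 34.4-fold higher against a floor of 3 counts over the group and at least 17.2-fold higher against 6.

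Hox genes, which give cells their position along the body and respond to retinoic acid, differed by paralog group. In groups 1 to 4, 7 of 12 fell and 3 rose. In groups 5 to 8, 10 of 11 fell, with a median of -0.87, and Hoxa5 rose by 0.44. Hoxc6 had 79.7, 78.3 and 77.6 CPM in WT and 18.3, 19.8 and 19.4 CPM in MLL2dTAG, a change of -2.03 (SE 0.06). In groups 9 to 13, 7 of 16 rose and 5 fell. Hoxa9 fell from 31.6 to 36.6 CPM in WT to 4.9 to 5.43 CPM, and Hoxd9 fell from 4.07 to 4.75 CPM in WT to 0.574 to 0.919 CPM. Hoxc13 and Hoxd13 reached 4.03 to 4.99 CPM and 2.37 to 3.84 CPM from 0.391 to 0.791 CPM and 0.503 to 0.586 CPM. Of the 7 that rose in this last set, 6 had a mean under 1 CPM in WT, and the 5 that fell were all above 4 CPM. In dCD NPC, Hoxc13 was at 5.25 ± 0.173 CPM and Hoxd13 at 2.79 ± 0.35 CPM (SD, n = 3). Neither was called between MLL2dTAG and dCD. Against WT, dCD had 14 of the 16 genes of groups 9 to 13 higher and 0 lower.

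**Figure D4:**
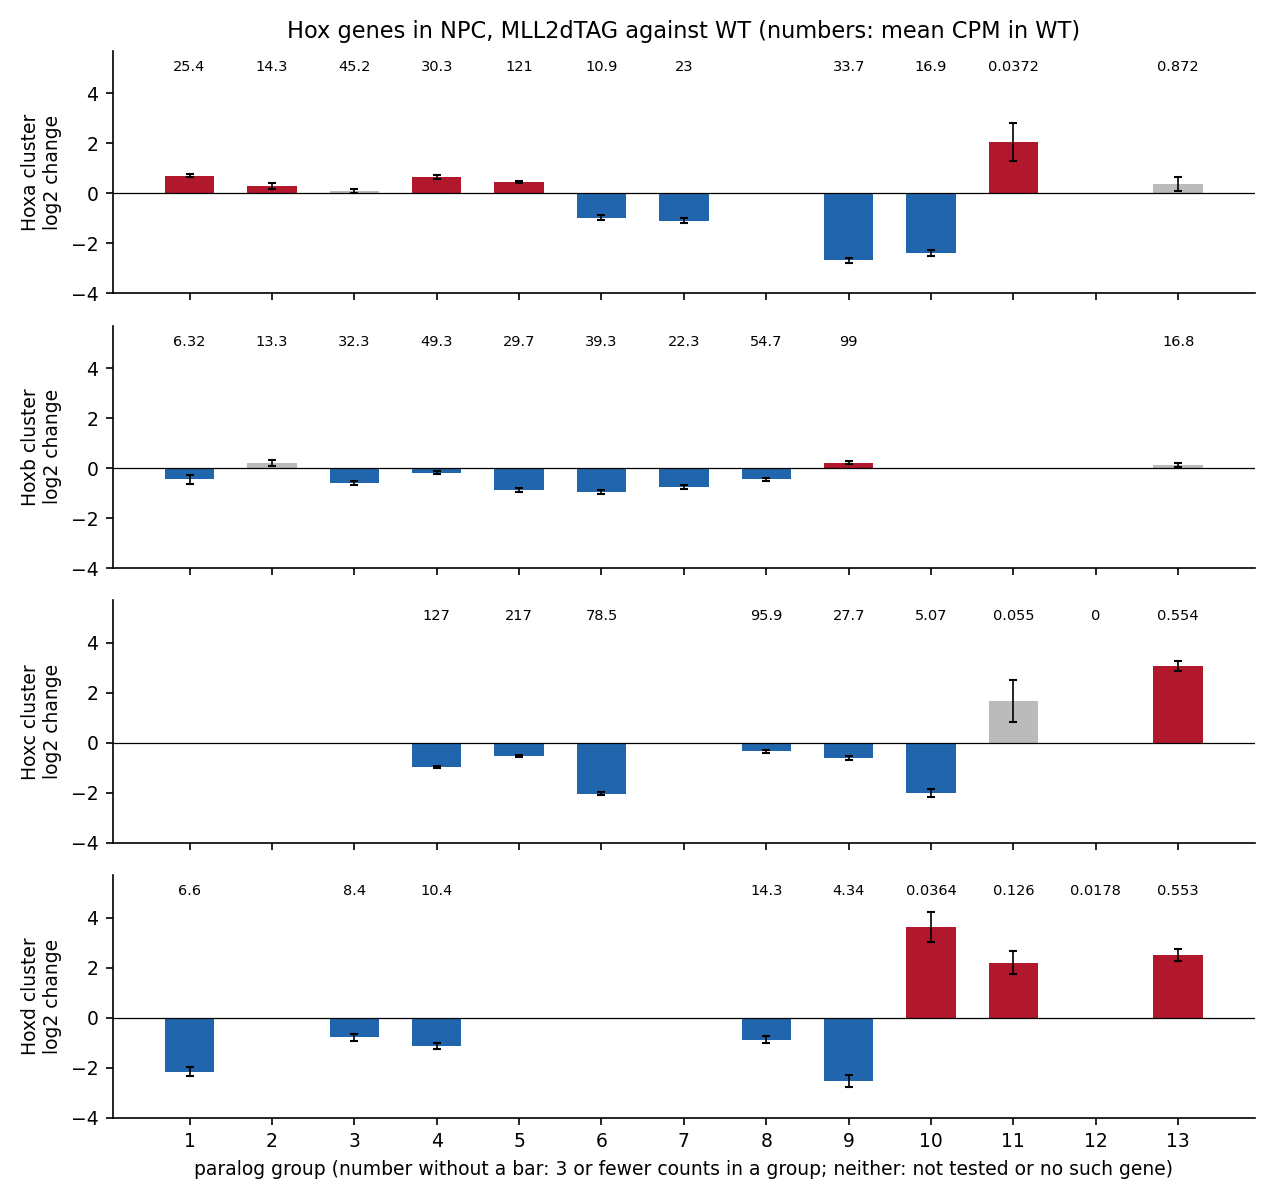
Log2 change of MLL2dTAG against WT in NPC for the Hox genes, by cluster (panels) and paralog group (x axis), with the SE as error bar; red bars were called higher, blue bars called lower and grey bars not called. The number over each bar is the mean CPM in WT. Hoxc6, at 78.5 CPM, has a change of -2.03, and the bars of Hoxd10, Hoxd11 and Hoxd13 rest on WT means below 1 CPM.

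Genes for retinoid handling, the pathway of the agent used to differentiate the cells, had more falls than rises. Of 25 tested, 9 rose and 13 fell, 2 and 7 of them at least 2-fold. Aldh1a2, which makes retinoic acid, had 127, 123 and 126 CPM in WT and 19.9, 21.1 and 19.9 CPM in MLL2dTAG (-2.62 (SE 0.06)). Rbp4, the retinol carrier gene, fell from 23.5 to 25.9 CPM in WT to 5.58 to 7.71 CPM, and Lrat, which stores retinol as esters, fell from 1.51 to 1.71 CPM in WT to 0.243 to 0.574 CPM. The retinoic acid receptor gene Rara was at 67.4 to 73.5 CPM and 67.7 to 72.1 CPM and was not called.

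Epithelial genes fell together. Of 35 tested, 4 rose and 25 fell, 1 and 14 of them at least 2-fold, with a median of -0.70. Epcam, the epithelial adhesion gene, had 63.8, 62.2 and 63 CPM in WT and 19, 16.2 and 18.7 CPM in MLL2dTAG. Cldn3, a tight junction gene, fell from 4.37 to 5.28 CPM in WT to 0.267 to 0.574 CPM, and Esrp1, an epithelial splicing factor gene, fell from 20.8 to 22.6 CPM in WT to 3.89 to 5.07 CPM. The 4 that rose were Dsc2, Jup, Cdh2 and Cdh11. Cdh2 and Cdh11 encode cadherins of neural and mesenchymal cells, and Cdh2 rose from 167 to 176 CPM in WT to 282 to 299 CPM, whereas Cdh1, the gene of E-cadherin, fell from 73.8 to 83.8 CPM in WT to 28.2 to 29.1 CPM. All claudins that changed did so at least 2-fold: of 16 tested 11 fell and 1 rose.

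Matrix and contractile genes rose more often than they fell, with large exceptions. Of 49 tested, 32 rose and 13 fell, 17 and 10 of them at least 2-fold. Spp1, the gene of osteopontin, rose from 7.5 to 9.37 CPM in WT to 46.7 to 51.2 CPM. Bgn, a proteoglycan gene, rose from 3.41 to 5.25 CPM in WT to 22.7 to 25 CPM, and the smooth muscle gene Cnn1 rose from 2.82 to 3.33 CPM in WT to 16.3 to 17.2 CPM. Col1a2, a chain of type I collagen, had 151, 154 and 154 CPM in WT and 21.2, 19.7 and 23.1 CPM in MLL2dTAG (-2.85 (SE 0.06)). Its partner chain gene Col1a1 fell by 0.64, and Fbn1, the microfibril gene, fell by 2.36.

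Factors of mesoderm and mesenchyme were divided. Of 49 tested, 22 rose and 14 fell, 10 and 8 of them at least 2-fold. Tcf21, a factor of visceral mesoderm, had 23.2, 22.6 and 23 CPM in WT and 1.16, 1.06 and 0.652 CPM in MLL2dTAG. Osr2, a factor of limb and kidney mesenchyme, fell from 27.5 to 29 CPM in WT to 3.14 to 3.44 CPM, and the craniofacial factor gene Alx1 fell from 47.7 to 49.3 CPM in WT to 7.91 to 8.63 CPM. In the opposite direction Foxf2 rose from 0.127 to 0.213 CPM in WT to 3.8 to 4.83 CPM. Of 22 neural crest genes 11 rose and 7 fell, with the ligand gene Edn3 going from 1.96 to 2.34 CPM to 0.119 to 0.261 CPM and Mitf, the melanocyte factor, from 3.01 to 3.18 CPM to 10.2 to 11.3 CPM.

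Among signalling pathways, BMP, nodal and TGF-beta genes rose most often. Of 48 tested, 36 rose and 9 fell, 12 and 4 of them at least 2-fold, with a median of 0.46. The antagonist gene Fst had 19.8, 18.5 and 17.5 CPM in WT and 78.4, 88 and 80.3 CPM in MLL2dTAG. The nodal antagonist gene Lefty2 rose from 0.168 to 0.38 CPM in WT to 3.03 to 3.73 CPM, and the receptor gene Bmpr1b fell from 44.8 to 48.7 CPM in WT to 9.05 to 10 CPM. Nodal, Lefty1, Lefty2 and Gdf3 are also on the pluripotency list. In the FGF and ERK pathway 19 of 34 rose and 11 fell. The ligand genes Fgf2 and Fgf20 changed in opposite directions, Fgf2 from 1.11 to 1.42 CPM to 4.68 to 5.77 CPM and Fgf20 from 2 to 2.47 CPM to 0.0297 to 0.209 CPM, and the feedback inhibitor gene Spry4 rose from 1.76 to 2.29 CPM in WT to 6.25 to 7.46 CPM.

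WNT genes leaned lower, with 24 of 54 down and 14 up. The ligand gene Wnt5b fell from 9.43 to 10.4 CPM in WT to 0.839 to 1.62 CPM, and Notum, a secreted enzyme gene that inactivates WNT ligands, fell from 29.1 to 31.2 CPM in WT to 6.89 to 7.44 CPM. The secreted antagonist gene Sfrp5 rose from 6.76 to 7.35 CPM in WT to 25.9 to 27.4 CPM. Of 20 hedgehog genes 5 rose and 8 fell. Hhat, whose product adds palmitate to the ligands, fell from 6.05 to 7.72 CPM in WT to 1.19 to 1.72 CPM, and the ligand gene Ihh rose from 5 to 5.54 CPM in WT to 18 to 20.1 CPM. Of 24 Notch genes 8 rose and 10 fell, with the ligand gene Jag2 going from 15.8 to 18.8 CPM to 4.46 to 4.75 CPM and the target gene Hey2 from 3.14 to 3.7 CPM to 10.3 to 11.3 CPM.

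Genes of the amino acid and unfolded protein responses rose nearly throughout. Of 35 tested, 32 rose and 1 fell, 16 and 0 of them at least 2-fold, with a median of 0.81. Atf4, which drives the amino acid response, had 79.7, 79.8 and 82.9 CPM in WT and 214, 217 and 215 CPM in MLL2dTAG (1.41 (SE 0.04)). Its target genes Chac1, Atf3 and Trib3 went from 1.27 to 2.09 CPM to 7.62 to 10.9 CPM, from 2.85 to 3.46 CPM to 15 to 15.9 CPM and from 1.84 to 2.74 CPM to 9.08 to 9.81 CPM. The one that fell was the lipoprotein receptor gene Vldlr (-0.51), and the cystine transporter gene Slc7a11 was at 7.93 to 8.99 CPM and 9.21 to 9.76 CPM and was not called. The summed level of the list was 4976 to 5138 CPM in WT and 7928 to 8037 CPM in MLL2dTAG. Heat shock and proteasome genes rose in 28 of 44 and fell in 3, with Hspb1, a small heat shock protein gene, going from 14.6 to 17.1 CPM to 47.1 to 47.4 CPM.

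Lysosome and autophagy genes rose in 45 of 55 and fell in 7, mostly by less than 2-fold, with a median of 0.45. The protease gene Ctsl had 301, 286 and 301 CPM in WT and 866, 838 and 837 CPM in MLL2dTAG (1.52 (SE 0.03)). The 3 members with the largest falls were the protease gene Ctsh, which fell from 18.9 to 20.8 CPM in WT to 1.61 to 2.11 CPM, the autophagy gene Gabarapl1, which fell from 101 to 103 CPM in WT to 27 to 29 CPM, and Lipa, the acid lipase gene, which fell from 61.3 to 61.9 CPM in WT to 19 to 19.8 CPM. The summed level of the list was 5295 to 5324 CPM in WT and 8127 to 8209.7 CPM in MLL2dTAG. Cholesterol genes rose in 22 of 31 and fell in 5.

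Glycolysis and hypoxia genes fell nearly throughout. Of 38 tested, 2 rose and 35 fell, 0 and 15 of them at least 2-fold, with a median of -0.55 and a summed level of 9579 to 9776 CPM in WT and 5787 to 5836 CPM in MLL2dTAG. Pdk1, which limits the entry of pyruvate into mitochondria, had 194, 199 and 200.5 CPM in WT and 54.8, 52.8 and 52.8 CPM in MLL2dTAG (-1.89 (SE 0.04)). The glycolytic enzyme gene Aldoc fell from 51.6 to 54.9 CPM in WT to 11.4 to 12 CPM, and Ldha, which makes lactate, fell from 867 to 889 CPM in WT to 434 to 441 CPM. The hypoxia-induced gene Car9 fell from 3.42 to 3.91 CPM in WT to 0.887 to 0.905 CPM. The 2 that rose were Ndrg1 and the collagen hydroxylase gene P4ha2, by 0.18 and 0.75. Nuclear genes of the respiratory chain were higher in 38 of 77 and lower in 7, with a median of 0.12. Cox4i2, a hypoxia-linked subunit gene, fell from 4.87 to 5.53 CPM in WT to 0.444 to 0.771 CPM.

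Cytosolic ribosomal protein genes fell by small amounts in near unison. Of 81 tested, 1 rose and 74 fell, none by 2-fold, and the median was -0.30. Their sum was 22358 to 23046 CPM in WT and 17983 to 18805 CPM in MLL2dTAG. Rpl22 had 397, 386 and 397 CPM in WT and 269, 271 and 260.1 CPM in MLL2dTAG, and Rps27l, a p53-induced paralog, was the one that rose, by 0.24. Eef2, the elongation factor gene, was among the 6 largest falls in CPM and fell from 2366 to 2474 CPM in WT to 1718 to 1788 CPM.

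Mitosis genes fell in 35 of 40 and rose in 2, with a median of -0.36. Pttg1, the gene of securin, fell from 43.5 to 45.9 CPM in WT to 9.91 to 11.3 CPM, and Cenpf, a kinetochore gene, fell from 448 to 473 CPM in WT to 253 to 258 CPM. The 2 that rose were Cdk1, by 0.16, and Mybl2, by 0.80. DNA replication genes had 20 of 53 higher and 10 lower, with a median near 0 whose sign changed with the scaling of the libraries. Of 21 genes of cell-cycle inhibitors and G1 cyclins 11 rose and 5 fell. The inhibitor genes Cdkn2a and Cdkn2b went from 14.1 to 18.8 CPM to 45.5 to 51.2 CPM and from 7.11 to 8.04 CPM to 28.4 to 31.9 CPM. Replication-dependent histone genes, whose RNA lacks a poly(A) tail, were higher in 7 of 28 (25%) and lower in none, beside 33.3% and 28.4% of all genes.

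Interferon and antigen presentation genes changed in both directions. Of 46 tested, 24 rose and 12 fell, 16 and 10 of them at least 2-fold. The interferon-induced genes Rsad2 and Xaf1 went from 0.168 to 0.266 CPM to 4.15 to 4.88 CPM and from 0.95 to 1.01 CPM to 17.3 to 18 CPM. The antigen-presenting genes H2-Q4 and H2-Ab1 went from 20.3 to 22.9 CPM to 1.28 to 1.51 CPM and from 2.34 to 3.07 CPM to 0.089 to 0.309 CPM. The class I gene H2-K1 fell from 44.9 to 47.6 CPM in WT to 9.22 to 10.7 CPM, and H2-Q4 is one of a family of similar copies. Ifit2, which interferon also induces, fell from 13.8 to 14.3 CPM in WT to 1.39 to 1.69 CPM. Among chemokines, cytokines and their receptors 15 of 29 rose and 5 fell. Cxcl12, which attracts migrating cells, rose from 9.66 to 10.03 CPM in WT to 77.5 to 81.3 CPM, and Il33 rose from 4.21 to 4.37 CPM in WT to 22.2 to 24.3 CPM.

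Chromatin genes mostly changed little, with single exceptions. Among 34 Polycomb genes 16 rose and 13 fell, 2 and 2 of them at least 2-fold. Phf19, an accessory subunit gene of the complex that methylates H3K27, fell from 5.83 to 6.4 CPM in WT to 0.574 to 0.731 CPM, and Epop, another accessory subunit gene, rose from 13 to 14 CPM in WT to 33.7 to 35.8 CPM. Bmi1, a subunit gene of the complex that ubiquitinates histone H2A, rose from 52.1 to 55.4 CPM in WT to 111 to 114 CPM. Of 18 genes of DNA methylation and demethylation 7 rose and 7 fell. Dnmt1, the maintenance methyltransferase gene, had 383, 388 and 384 CPM in WT and 204, 207 and 211 CPM in MLL2dTAG, while Dnmt3l, the cofactor gene of de novo methylation in germ cells, rose from 0.852 to 1.01 CPM in WT to 8.13 to 9.52 CPM. Among 51 remodeller genes 19 rose (37.3%) and 12 fell (23.5%), near the 33.3% and 28.4% of all genes. Smarca1 fell from 89.2 to 90.6 CPM in WT to 35.7 to 36.3 CPM and Smarca2 rose from 68.1 to 69.6 CPM in WT to 148 to 156 CPM. Of 6 H3K4 demethylase genes 2 rose and 4 fell, and apart from the Y-linked Kdm5d no change reached 2-fold.

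Several of the largest rises lay outside these pathways. Tuba3a, an alpha-tubulin gene of the testis, had 1.71, 1.41 and 1.96 CPM in WT and 113, 115 and 108 CPM in MLL2dTAG. Its near-identical copy Tuba3b was at 0.127 to 0.335 CPM and 0.626 to 1.52 CPM, and the division of reads between the copies is uncertain. Aspa, which breaks down N-acetylaspartate, had 0.19, 0.186 and 0.419 CPM in WT and 15.3, 16.9 and 14.2 CPM in MLL2dTAG. Fbp2, a gluconeogenic enzyme gene of muscle, rose from 0.253 to 0.335 CPM in WT to 10.9 to 11.9 CPM, and Lgals9, the gene of galectin 9, rose from 2.79 to 2.98 CPM in WT to 50.2 to 57.7 CPM. Of 18 tubulin genes 7 rose and 10 fell. Germline and meiosis genes changed strongly in both directions: of 54 tested, 22 rose and 24 fell, 14 and 16 of them at least 2-fold. Fkbp6, which acts in the piRNA pathway, rose from 1.17 to 1.68 CPM in WT to 22.9 to 24.6 CPM, and Hormad2, a protein gene of meiotic chromosomes, rose from 0.586 to 0.754 CPM in WT to 6.18 to 7.83 CPM.

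Some large changes lay side by side on a chromosome. Runs of 8 neighbouring genes, each averaging 1 CPM or above, were ranked after their values were seen, which allows no test. In 51 of 13453 runs the median gene was at least 2-fold lower, and in 31 at least 2-fold higher. The lowest run, on chromosome 4 from Wdr31 to Zfp618, had a median of -1.92 and 7 of 8 genes at least 2-fold lower. Wdr31 fell from 15.5 to 17 CPM in WT to 2.1 to 3.03 CPM and Rgs3, a regulator of G protein signalling, fell from 26 to 28.9 CPM in WT to 4.42 to 5.69 CPM. A run on chromosome 6, with a median of -1.53, held the imprinted genes Sgce, Peg10, Ppp1r9a and Asb4 beside Col1a2. Sgce fell from 76.8 to 79.2 CPM in WT to 22.5 to 27.7 CPM and Asb4 fell from 8.25 to 9.94 CPM in WT to 0.729 to 0.783 CPM, whereas Peg10 fell by 0.31. The highest run, on the X, had a median of 3.31 and held Xlr4b, Xlr4c and Xlr3c, genes with several similar copies. Xlr3c rose from 0.346 to 1.01 CPM in WT to 14 to 15.4 CPM, while F8a, Zfp275 and Haus7, inside the same run, changed by 0.59, 0.22 and 0.34.

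The same lines were also compared as ESC, to ask which changes were present outside NPC, and 56.9% of genes were called there, 28.7% higher and 28.2% lower. Of the 1581 genes at least 2-fold higher in NPC, 44.9% were called higher in ESC and 14.3% lower. Of the 2435 at least 2-fold lower, 51.4% were called lower in ESC and 10.9% higher. The difference between the changes at the 2 stages was tested as an interaction, which called 49% of all genes. Because the genes above were chosen on their NPC values, the shares of them called by the interaction, 63.6% and 58.7%, are a description.

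The genes with the largest falls in NPC differed in how they stood in ESC. Magohb was at 12.8 ± 2.8 CPM in WT ESC and 0.358 ± 0.0141 CPM in MLL2dTAG ESC (SD, n = 3 each), a change of -5.14 against -8.25 in NPC. Casp8 was at 3.41 ± 0.512 CPM and 3.65 ± 0.561 CPM in ESC and was not called there, and the interaction was -5.79 (edgeR adjusted p = 1.7e-18). Igsf10 changed by -0.42 in ESC and -6.54 in NPC. Lin28b had like changes at both stages, -3.28 and -3.29, with an interaction of -0.01 (SE 0.11, edgeR adjusted p = 0.97). Igf2 and Zim1 changed by -0.31 and -0.51 in ESC, where WT levels were 25 ± 0.679 CPM and 7.47 ± 0.905 CPM.

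Gene groups also differed in how they stood in ESC. Pluripotency genes, at full level in both ESC groups, had an ESC median of 0.24 with 22 higher and 7 lower; Pou5f1 was at 555 ± 63.9 CPM in WT ESC and 619 ± 19.22 CPM in MLL2dTAG ESC (SD, n = 3). The endoderm list, near the shares of all genes, had 11 higher and 12 lower in ESC and the lysosome list 19 higher and 19 lower. Hox genes of groups 5 to 8, nearly all lower in NPC, had 5 higher and 0 lower in ESC. WT ESC means of Hoxc6, Hoxa7, Hoxb6 and Hoxa6 were only 0.644, 0.594, 0.291 and 0.0448 CPM, levels at which a fall is hard to call. Ribosomal protein genes were lower at both stages, with none higher and 76 lower in ESC, and so were epithelial genes (7 higher and 23 lower) and glycolysis genes (4 higher and 28 lower). The amino acid and unfolded protein list was higher at both, with 29 higher and 2 lower in ESC. Among single genes that rose in NPC, Dnmt3l, Spp1, Bgn and Tuba3a had WT ESC means of 219, 426, 187 and 29.7 CPM. Their WT NPC means were 0.936, 8.14, 4.25 and 1.69 CPM. Aspa, which also rose, had a WT ESC mean of 0.299 CPM and a WT NPC mean of 0.265 CPM.

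**Figure D5:**
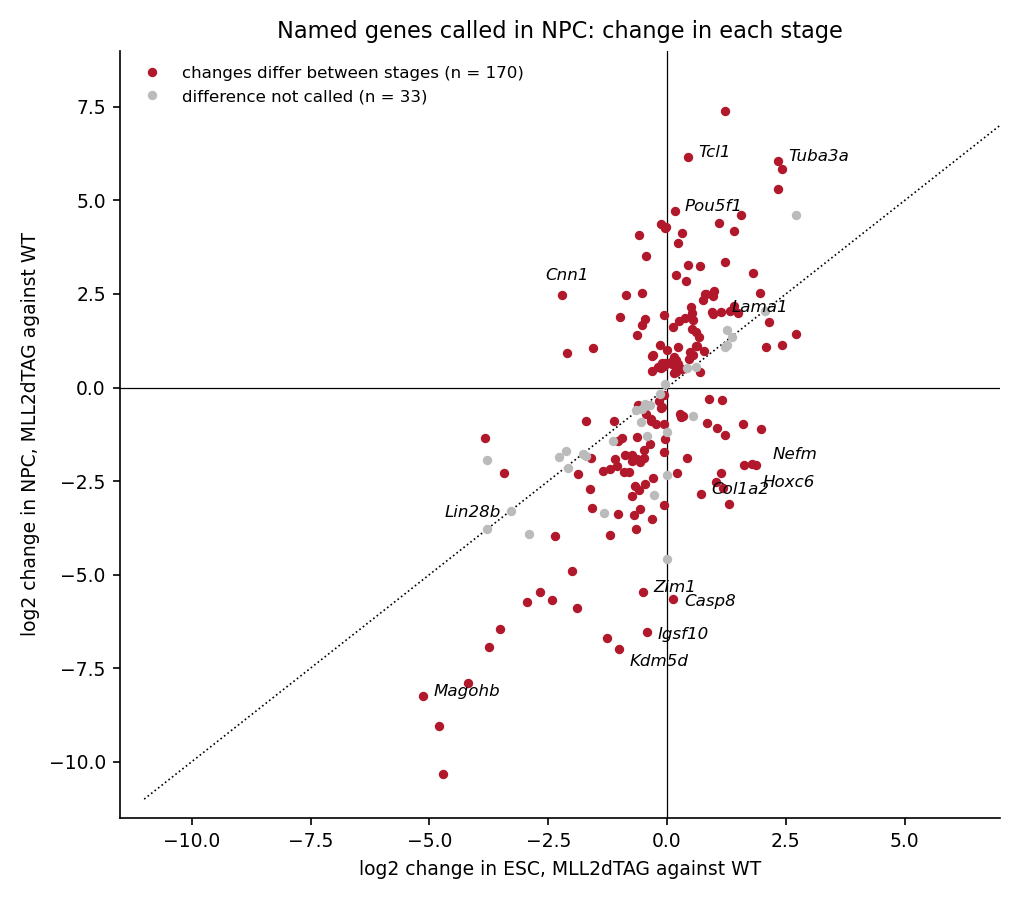
Log2 change of MLL2dTAG against WT in ESC (x axis) and in NPC (y axis) for 203 named genes called in NPC, with the dotted line marking equal change. Red points (170) had changes that differed between the stages by the interaction test, and grey points (33) did not pass it. Lin28b lies on the line, Magohb is low on both axes, and Pou5f1 and Casp8 lie near 0 in ESC.

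Set against dCD NPC, MLL2dTAG NPC had 55.9% of genes called, 31.6% higher and 24.3% lower. This comparison uses the same MLL2dTAG libraries as the one with WT, so its values are only set beside the others. Magohb was 12.1 ± 0.415 CPM in dCD NPC (SD, n = 3), Casp8 14.9 ± 1.72 CPM and Igsf10 53.9 ± 2.76 CPM, and the changes of MLL2dTAG against dCD were -8.32, -6.35 and -7.33. Pou5f1 was 1.27 ± 0.0276 CPM and Igf2 2328 ± 78.6 CPM in dCD, beside WT means of 1.01 and 2903 CPM. Zim1 lay between the other groups, at 205 ± 7.44 CPM, and Gata4 was at 36.1 ± 1.86 CPM.

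Pluripotency genes were higher in MLL2dTAG than in dCD in 31 of 34, and the amino acid and unfolded protein list in 31 of 35. Set against WT, dCD was higher in 9 of the pluripotency genes and lower in 9, beside 5478 and 5490 of all 20511 genes. The amino acid and unfolded protein list was higher in dCD than in WT in 21 of 35 and lower in 6. Ribosomal protein genes, lower than WT nearly throughout, were higher than dCD in 7 and lower in 7 of 81. In dCD itself 77 of these 81 were lower than WT and 1 was higher. Mitosis genes were higher than dCD in 25 of 40 and lower in 3, the opposite of their direction against WT. They were also lower in dCD than in WT, in 39 of 40, with 0 higher. Neuronal structure genes were lower than dCD in 39 of 43, and matrix genes, mostly above WT, were lower than dCD in 31 of 49 and higher in 13. Against WT, dCD had 30 of the neuronal structure genes higher and 6 lower, and 34 of the matrix genes higher and 10 lower. Glycolysis and hypoxia genes were lower than WT in dCD in 33 of 38 and higher in 3. Lysosome genes were higher in 39 of 55 and lower in 6. Heat shock and proteasome genes were higher in dCD than in WT in 29 of 44 and lower in 3. Epithelial genes were lower in 20 of 35 and higher in 7. The falls of ribosomal, mitosis, glycolysis and epithelial genes were thus not particular to MLL2dTAG. Nor were the rises of lysosome, matrix, heat shock and amino acid response genes.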

How the data were processed

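Polyadenylated RNA of 36 samples was sequenced by the submitters. Libraries were prepared with a stranded TruSeq mRNA kit, per the labels' protocols. The authors deposited raw counts per gene symbol, without normalization. HTSeq is named for this set in the submitters' processing notes; its version, the aligner, the genome build, the annotation and the strand setting are not given in the sources used here. Columns were matched to samples by name, and 6 columns whose names were used more than once were not used. All 37 mitochondrial genes were at 0.

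In R 4.3.3, edgeR 4.0.16 with limma 3.58.1 was run on 18 libraries in 6 groups (WT, dCD and MLL2dTAG, as NPC and ESC), which share 1 estimate of the spread with 12 residual degrees of freedom. Genes were filtered with filterByExpr, scaled with TMM factors (0.977 to 1.04 in the 6 libraries) and tested with the quasi-likelihood F test, two-sided, with Benjamini-Hochberg adjustment over all genes tested. The SE is the change divided by the root of F. DESeq2 1.42.0, 3 other scalings, no filter, the 2 groups alone, a replicate block, halved counts, a test against 2-fold and leaving out each library were alternatives. On simulated counts for this comparison (19591 genes), 97% of genes with a log2 change of 1 and 85% with 0.5 were recovered, with 11 false calls among 19391 unchanged genes. Changes were planted in 100 genes of each size, all averaging over 1 CPM, so recovery below 1 CPM was not measured. In the data 61.7% of genes were called, a setting that the simulation did not copy. Promoter sequences are from RefSeq on GRCm38.p6, and gene order is from RefSeq.

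The members and gene lists were chosen with earlier results of these data known. Genes named are Kmt2b, Kmt2c and Kmt2d; the 12 highest and 12 lowest changes at 5 CPM or more, called and without overlap between groups; the 6 largest rises and falls in CPM; up to 4 members per list with the largest changes at 1 CPM or more, and any needed for a count; and cell type markers. Some others were chosen after their values were seen: copies of named genes (Magoh, Tuba3b), members of the neighbourhood runs, and 2810429I04Rik, Gsx1, Zscan4c, Zdbf2, Plagl1, Impact, Igf2r, Rara, Cdh1, Cdh2, Fbn1, Atf4, Slc7a11, Ctsl, Ldha, H2-K1 and Ifit2. Some results are not reported here.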

Additional observations from a re-analysis of the deposited data

Results flagged for a closer look

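For 8 of the named genes that averaged 5 CPM or more in the 6 NPC libraries, the change of MLL2dTAG against WT was called and at least 2-fold in both stages but in opposite directions, and the difference between the stages passed the edgeR interaction test. Cnn1, a smooth muscle gene, was 2.47 in NPC and -2.21 in ESC, a difference of 4.69 (edgeR adjusted p = 2.2e-23), and it was the only one of the 8 that was higher in NPC. Osr2, a mesenchymal factor, was -3.12 and 1.31, a difference of -4.43 (edgeR adjusted p = 4.0e-11). The neuronal genes Nefm and Syt1 differed by -3.95 (edgeR adjusted p = 6.5e-23) and -2.47 (2.3e-09). For Nefm the changes were -2.07 in NPC and 1.88 in ESC, and for Syt1 -1.26 and 1.21. Notum, a WNT-inactivating enzyme gene, was -2.07 and 1.61, a difference of -3.68 (edgeR adjusted p = 1.8e-23). The 3 Hox genes Hoxa9, Hoxc6 and Hoxa7 differed by -3.86 (edgeR adjusted p = 4.2e-16), -3.83 (5.1e-17) and -2.13 (2.0e-06). Their NPC changes were -2.69, -2.03 and -1.09, and their ESC changes 1.17, 1.80 and 1.04. WT ESC means of the 8 genes ran from 0.195 CPM (Osr2) to 7.81 CPM (Cnn1). Olig3, Hoxd9, Hoxd4 and Khdrbs2 also had changes of this size in opposite directions that passed the interaction test, but averaged less or were not called in ESC. The cause of the opposite directions was not tested.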

How the results depend on the processing

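The count of genes called between MLL2dTAG and WT NPC, 12665, ran from 11915 to 12872 over all alternatives, and from 11915 to 12064 when each of the 6 libraries was left out in turn. Only the test against a 2-fold threshold gave counts more than 1.5 times lower: 942 genes higher against 1581, and 1476 lower against 2435. Of the 4016 genes called at least 2-fold, 3716 to 3741 were called in the same direction without each library. DESeq2 called 12308 genes. Scaling moved the split between directions: 54% of calls were higher with TMM factors, 53.4% with RLE, 44.7% with upper-quartile factors and 45.7% with library totals, and the median of all genes moved from 0.03 to -0.06 at most. The replicate numbers do not pair the samples, since deviations from the group means correlated by only -0.0212 to 0.0312, and the fit with the replicate number as a block called 12502 genes, 1568 and 2401 of them at least 2-fold higher and lower. Leaving out libraries gave 10687 to 10913 calls against dCD, 10917 to 11423 in ESC and 9556 to 10097 for the interaction. Of 2856 results of 204 named genes under alternatives, 2839 kept their direction and call, none reversed, and the other 17 belonged to Kmt2b, Kmt2d and Cox7a1. Medians changed sign for 8 of 48 lists, all with medians near 0: formative epiblast, axon guidance, Polycomb, imprinted, germline, DNA replication, p53 and chromatin remodeller genes. Depth limits genes under about 0.1 CPM, where a count of 0 is within reach.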

Other observations

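Gene families taken by symbol were also counted by direction, beside 33.3% higher and 28.4% lower among all genes tested. Of 297 solute carriers, the membrane transporters of small molecules, 130 rose (43.8%) and 82 fell (27.6%), 48 and 38 at least 2-fold. Of 383 zinc finger genes named Zfp 114 rose (29.8%) and 150 fell (39.2%), 10 and 25 at least 2-fold. These families had not been ordered by their values, and no test was made on them.

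Further runs of 8 neighbouring genes, ranked after their values were seen, joined genes of the same kind. On chromosome 3 a run of S100a calcium-binding and Sprr epidermal genes had a median of 1.57 with 6 of 8 at least 2-fold higher. On chromosome 13 a run that held 6 Serpinb protease inhibitor genes had a median of 1.45 with 5 at least 2-fold higher; these have similar copies, and the division of reads among them is uncertain. On chromosome 9 the run around Tdgf1 also held Ltf, the gene of lactoferrin, which rose from 0 to 0.16 CPM in WT to 3.22 to 4.38 CPM, and Lrrc2, which rose from 0.905 to 1.09 CPM in WT to 6.89 to 7.97 CPM. On chromosome 10 the run around Tcf21 held the transporter gene Slc2a12, which fell from 10.3 to 11.8 CPM in WT to 0.53 to 0.939 CPM.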
